A study of Mus musculus with 5 samples.

Results

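The insulin-like growth factor (IGF) genes described here are the ligands Igf1 and Igf2, the receptor gene Igf1r and the binding-protein genes Igfbp2, Igfbp3, Igfbp4, Igfbp5, Igfbp6 and Igfbp7. They were picked by symbol and are 9 of the 17818 genes in the deposited table, where every one of them was present. Poly-A RNA of heart tissue was sequenced in 5 libraries from males, all of them recipients of a marrow transplant 12 months earlier. The groups were 1 library from a wild-type (WT) mouse given vector, 2 libraries from Tet2+/- mice given vector and 2 libraries from Tet2+/- mice given oridonin, a plant diterpenoid, each with a labelled treatment time of 2 months. Transplantation is thus shared by all groups, and no WT heart received oridonin. The labels do not say whether the Tet2+/- genotype belongs to the transplanted marrow, to the host or to both, nor how old the mice were or whether libraries came from single animals, so the p-values measure the spread between these libraries. The titles also carry the words 1 month and 2 month, which conflict with the labelled 2 months, and these numbers were used only to name replicates.

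IGF1 and IGF2 are secreted peptides that bind the IGF1 receptor, a tyrosine kinase that signals through insulin receptor substrates, phosphoinositide 3-kinase and AKT. The binding proteins hold the ligands outside the cell, extend or block their action, and are cut by proteases that free the ligand. IGFBP7 binds IGFs weakly and is also studied as a secreted factor of endothelial cells and of stressed heart. In the heart, IGF1 is made by macrophages and other non-muscle cells and acts on cardiomyocytes.

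Levels are given as CPM, the counts of a gene scaled to the total counts of its library, and the values were recovered from the deposited log2 table as described under processing. The WT column gave whole counts for no more than 33.48% of genes, so it also appears to be a mix, with a second part that is not a column of the table. It was used as deposited, and every WT level and every difference from WT below refers to that column, which may not be 1 library's own values. Libraries held 14574823 to 15535778 counts, and a floor of 3 counts corresponded to 0.193 to 0.206 CPM. Mitochondrial genes took 23.6% of counts in the WT library and 26.8% to 30.2% in the Tet2 libraries. The heart label was borne out by cardiomyocyte markers, all 8 of which were detected in every library with sums of 48000 to 59900 CPM. Tet2 itself was at 15.6 CPM in WT, 19.2 and 7.76 CPM in Tet2 vector hearts and 9.43 and 17.9 CPM in oridonin hearts, so Tet2 mRNA in bulk heart did not separate the genotypes. Vector replicate 1 stood apart by its atrial chamber markers, whose sum was 1090 CPM with all 6 detected, against 17.6 to 91.7 CPM in the other 4 libraries.

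The libraries also differed by gene length. Among 2320 tested genes with 8 kb or more of exon sequence, the median log2 difference from the WT library was 0.06 in vector replicate 1 and -0.46 in vector replicate 2. In the same genes it was -0.38 in oridonin replicate 1 and -0.08 in oridonin replicate 2. Among 1579 genes under 2 kb it was 0.12 and 0.38 in the vector libraries and 0.19 and 0.05 in the oridonin pair. Long genes were thus lower, and short genes higher, in vector replicate 2 and oridonin replicate 1, 1 library from each Tet2 group. The members span this range, from 1.11 kb for Igfbp6 to 16.8 kb for Igf1r, and each is set beside its length class below. The part of this length pattern in the members' values was not tested.

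**Figure D1:**
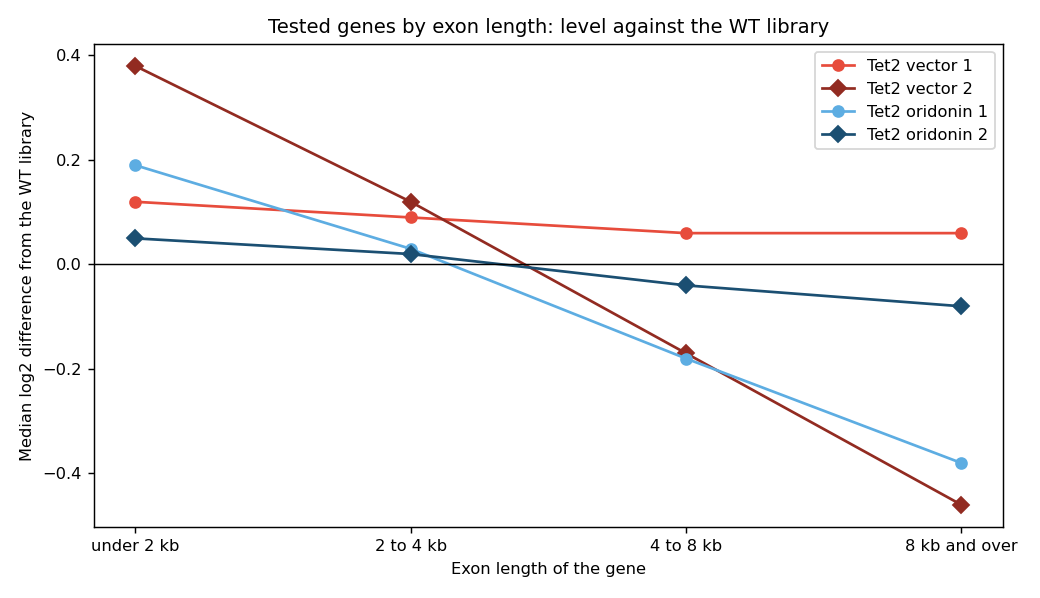
Median log2 difference from the WT library (y axis) for tested genes in 4 classes of exon length (x axis), 1 line for each Tet2 library. Vector replicate 2 runs from 0.38 below 2 kb to -0.46 at 8 kb and over and oridonin replicate 1 from 0.19 to -0.38, while vector replicate 1 stays between 0.12 and 0.06.

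Promoter sequence is shown for Igf1, Igfbp3 and Igfbp4, the tested members that were lower in both oridonin hearts than in both Tet2 vector hearts. The 150 bases before the RefSeq start site (GRCm38.p6) are printed 5′ to 3′ on the gene's strand, with TATAAA or TATATA in capitals. They lie at chr10:87860961-87861110 on the plus strand for Igf1, chr11:7213924-7214073 on the minus strand for Igfbp3 and chr11:99041094-99041243 on the plus strand for Igfbp4.
Igf1: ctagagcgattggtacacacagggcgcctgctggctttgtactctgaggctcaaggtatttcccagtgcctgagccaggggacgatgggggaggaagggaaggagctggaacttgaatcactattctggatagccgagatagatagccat
Igfbp3: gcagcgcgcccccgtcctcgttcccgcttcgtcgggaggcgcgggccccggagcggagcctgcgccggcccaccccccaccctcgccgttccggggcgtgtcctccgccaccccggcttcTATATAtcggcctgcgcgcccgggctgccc
Igfbp4: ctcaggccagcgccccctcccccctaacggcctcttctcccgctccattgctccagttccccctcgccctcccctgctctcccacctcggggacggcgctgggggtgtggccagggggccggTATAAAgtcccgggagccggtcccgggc

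The 3 sequences differ in their core elements. The Igfbp3 sequence held TATATA beginning 30 bases before the start and the Igfbp4 sequence TATAAA beginning 28 bases before it. Igf1 had neither in the stretch shown. That stretch lies within the Igf1 gene span given below, which begins at chr10:87858265, and the bases before that upstream start were not searched. Windows from 250 bases before to 50 after each start were then searched on both strands for TATAAA, for the variant TATATA, and for the GC box GGGCGG. The first and second of these can overlap each other. All 9 members matched RefSeq, with 13 windows in all. TATAAA was present for 2 members (Igfbp4 and Igfbp6), TATATA for 1 (Igfbp3) and GGGCGG for 4 (Igf1r, Igf2, Igfbp2 and Igfbp7). Of 32851 windows of the same length, 13.6% held TATAAA, 5.67% TATATA and 35.7% GGGCGG. These shares are of single windows, while a member was counted if any of its windows held the motif, so the units differ. These matches are a description of the letters only.

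The binding proteins made up nearly all of the mRNA of the set, and the order of the genes was set by large differences in level. Compared per kb of exon, which allows genes to be set side by side, Igfbp7 was the highest, with a median over the 5 libraries of 129 CPM per kb and a range of 110 to 188. Igfbp4 followed at 23.0 CPM per kb (17.2 to 32.2), then Igfbp5 at 14.9 (10.9 to 25.5), Igfbp6 at 10.5 (8.28 to 31.1) and Igfbp3 at 9.74 (7.64 to 15.7). The ranges of these 4 genes overlapped from each one to the next. Library by library, Igfbp4 was above Igfbp5 in 5 of 5, Igfbp5 above Igfbp6 in 4 and Igfbp6 above Igfbp3 in 4. Igf1r at 1.41 CPM per kb (1.15 to 1.97) and Igf1 at 1.26 (0.801 to 3.22) lay clearly below them and overlapped each other. Igf2 at 0.12 CPM per kb (0.0342 to 0.416) and Igfbp2 at 0.0743 (0 to 0.459) were near the detection limit and also overlapped. Igfbp7 lay above Igfbp4, Igfbp3 above Igf1r, and Igf1 above Igf2 without overlap of the ranges.

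Igfbp2 and Igf2 did not reach 1 CPM in 2 libraries and were not tested, which left 7 members among 12734 tested genes. In limma, 0 members and 0% of all tested genes passed a false discovery rate of 0.05 in any of the 3 comparisons. The smallest adjusted p over all genes was 0.208 for Tet2 vector over WT, 0.242 for oridonin over Tet2 vector and 0.126 for oridonin over WT, with 2 residual degrees of freedom in the fit. The member values below therefore describe these libraries. Where 1 library stands for WT, it was assumed to vary like the Tet2 libraries.

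**Figure D2:**
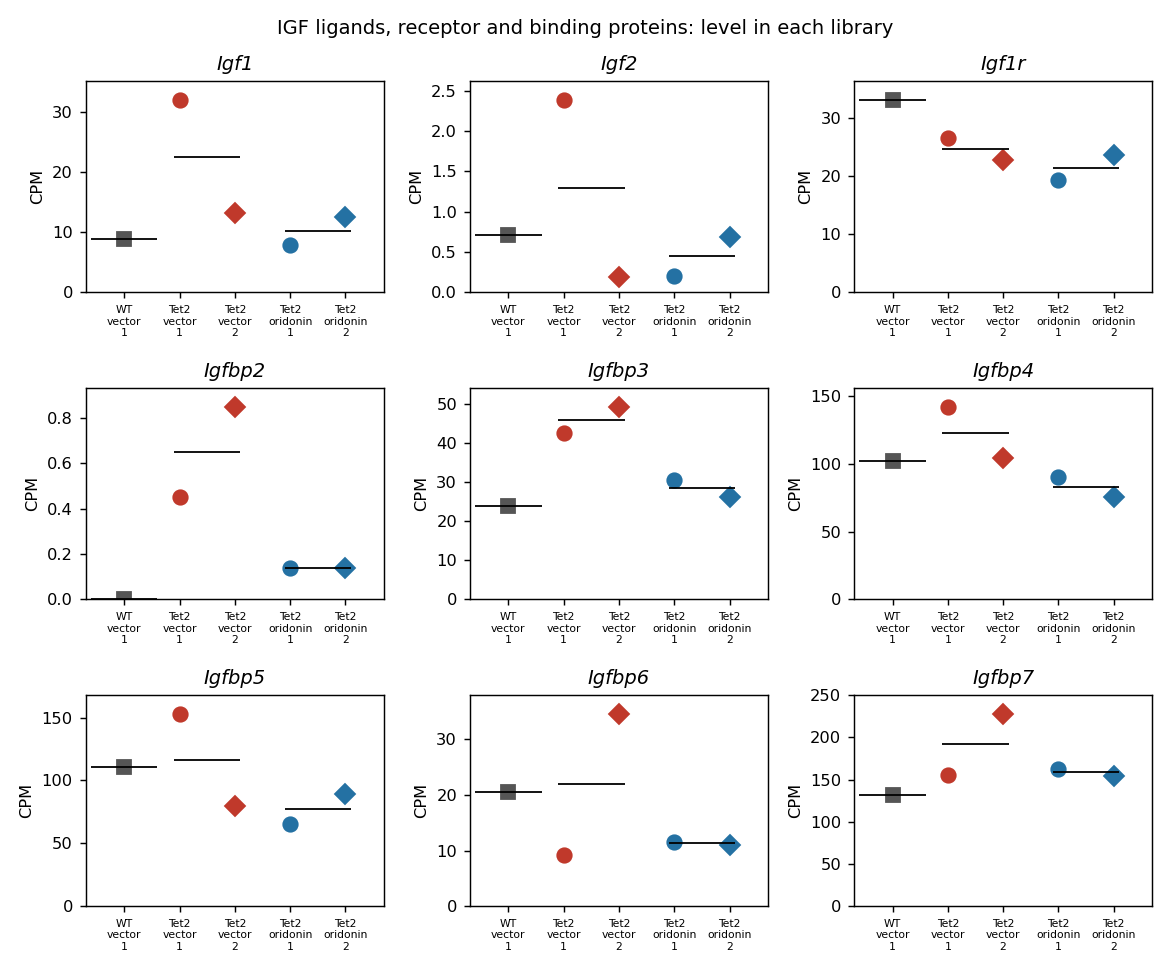
Level of each gene in CPM (y axis, each panel from 0) in the 5 libraries (x axis), with points for libraries and horizontal lines for group means. Igfbp3 was at 42.6 and 49.2 CPM in the Tet2 vector hearts against 23.9 in WT and 30.5 and 26.3 with oridonin, while Igf1 at 31.9 CPM and Igf2 at 2.38 CPM were high in vector replicate 1 alone.

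Igf1, the main growth factor ligand of the adult animal, lies at chr10:87858265-87937042 on the plus strand (GRCm38, GENCODE M21) with 9.9 kb of exon sequence. It was at 8.93 CPM in the WT library, 31.9 and 13.2 CPM in the Tet2 vector pair and 7.93 and 12.5 CPM in the oridonin pair. Both vector libraries were above all 3 others, but vector replicate 1 was far above the rest and replicate 2 barely above oridonin replicate 2. Tet2 vector over WT differed by a log2 of 1.20 (standard error 0.57; limma, adjusted p = 0.552), and oridonin over Tet2 vector by -1.04 (standard error 0.46; limma, adjusted p = 1). Without vector replicate 1 these values were 0.56 and -0.40, and without vector replicate 2 they were 1.83 and -1.68. Against the WT library the oridonin hearts differed by a log2 of 0.16 (limma, adjusted p = 0.97), and without oridonin replicate 2 the sign turned, at -0.17.

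Vector replicate 1 was the highest library for Igf1, as it was for 31.4% of all tested genes. It also had the highest sum of macrophage markers, at 361 CPM against 208 to 238 CPM in the other 4 libraries, with all 8 detected throughout. The atrial sum given above was highest there too. Among the other 4 libraries the macrophage sum did not run in the order of Igf1. It was 213 CPM in vector replicate 2 and 238 CPM in oridonin replicate 1, the lowest library for Igf1. Whether macrophage or atrial RNA has a part in the Igf1 values was not tested, and in bulk tissue fewer cells of a type cannot be told apart from less RNA per cell. Set beside its length class of 8 kb and over, Igf1 was above the class median of every Tet2 library, by a log2 of 1.77 and 1.02 in the vector hearts and 0.21 and 0.56 in the oridonin hearts. The class itself differed by only -0.03 between oridonin and vector, since its low libraries were 1 in each group. Subtracting it could thus hardly move oridonin over vector, from -1.04 to -1.01.

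Igf2, the fetal growth ligand that is expressed from the paternal copy, lies at chr7:142650766-142666816 on the minus strand. It was counted about 11 times in the WT library, 37 and 3 times in the Tet2 vector pair and 3 and 10 times in the oridonin pair. These counts equal 0.716 CPM, 2.38 and 0.196 CPM, and 0.205 and 0.686 CPM in that order. In CPM the 2 vector libraries bracketed all the others, but vector replicate 2 and oridonin replicate 1 had the same 3 counts. The pooled ratio of vector to oridonin, 40 against 13 counts, was 2.91 (95% interval 1.53 to 5.93 for counting error only), an interval that leaves out the wide spread between the vector libraries. Exons of Igf2 share 3596 bases with the same-strand gene model Gm49394 and 98 bases with the antisense gene Igf2os. Since no label states whether strand was kept, reads of Igf2 and Igf2os cannot be told apart there.

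Per kb of exon, Igf1 exceeded Igf2 in every library, by 7.21-fold in WT, 7.73- and 38.9-fold in Tet2 vector hearts and 22.3- and 10.5-fold in oridonin hearts. Igf1 was the leading ligand throughout, and the ratio varied mostly with the low Igf2 counts.

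Igf1r encodes the receptor through which both ligands signal and lies at chr7:67952827-68233668 on the plus strand. It was at 33.0 CPM in the WT library, 26.5 and 22.7 CPM in the Tet2 vector pair and 19.3 and 23.6 CPM in the oridonin pair. All 4 Tet2 hearts were below WT, and vector and oridonin hearts overlapped. The log2 fold change was -0.43 for Tet2 vector over WT (standard error 0.26; limma, adjusted p = 0.637), -0.63 for oridonin over WT (standard error 0.26; limma, adjusted p = 0.794) and -0.20 for oridonin over vector (95% interval -0.72 to 0.32; limma, adjusted p = 1). At 16.8 kb Igf1r is the longest member, and in vector replicate 2 it stood at -0.08 from the log2 median of its length class. In the other 3 Tet2 libraries it stood at -0.38, -0.39 and -0.40, in the order vector replicate 1 and oridonin replicates 1 and 2.

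The transcript ratio of Igf1 to Igf1r per kb, a description of ligand against receptor mRNA, was 0.458 in WT, 2.04 and 0.984 in Tet2 vector hearts and 0.695 and 0.897 in oridonin hearts. The WT heart had the lowest ratio, with more receptor mRNA than all 4 Tet2 hearts and less ligand mRNA than 3 of them. Of the Tet2 hearts, oridonin replicate 1 alone had less Igf1 than WT.

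Igfbp3, the major carrier of IGFs in blood and a target of growth hormone and p53, gave the smallest unadjusted p of the members in both main comparisons. The gene lies at chr11:7206086-7213923 on the minus strand. Its level was 23.9 CPM in the WT library, 42.6 and 49.2 CPM in the Tet2 vector pair and 30.5 and 26.3 CPM in the oridonin pair. The replicates of each Tet2 group were close to each other, and the oridonin hearts lay between WT and vector. The log2 fold change was 0.94 for Tet2 vector over WT (95% interval 0.34 to 1.54; limma, adjusted p = 0.417). For oridonin over Tet2 vector it was -0.69 (95% interval -1.18 to -0.20; limma, adjusted p = 1). The oridonin hearts were 0.24 above WT on the log2 scale (95% interval -0.36 to 0.84; limma, adjusted p = 0.879). These comparisons share the vector libraries, so they are not separate evidence of a change and its reversal.

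Genes of 2 to 4 kb, the length class of Igfbp3, had median log2 differences from WT of 0.02 to 0.12 in the 4 Tet2 libraries. Igfbp3 exceeded the median of that class by a log2 of 0.74 and 0.92 in the vector hearts and 0.32 and 0.12 in the oridonin hearts. Leaving out 1 library at a time, Tet2 vector over WT ranged from 0.83 to 1.04 and oridonin over vector from -0.80 to -0.59.

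Igfbp4, a binding protein mostly described as an inhibitor of IGF action until it is cut by the protease PAPP-A, lies at chr11:99041244-99054392 on the plus strand. It was at 102 CPM in WT, 142 and 104 CPM in Tet2 vector hearts and 90.3 and 75.7 CPM in oridonin hearts. Both oridonin hearts were below the other 3. The log2 fold change of oridonin over vector was -0.56 (95% interval -1.09 to -0.03; limma, adjusted p = 1), and it ranged from -0.78 to -0.33 when 1 library was left out. Tet2 vector over WT was 0.26 (limma, adjusted p = 0.78), with vector replicate 2 almost level with WT. From the median of the 4 to 8 kb class Igfbp4 differed by 0.42 and 0.21 in the vector hearts and by 0.01 and -0.38 in the oridonin hearts.

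The sum of 10 fibroblast markers was 2960 CPM in WT, 3240 and 3330 CPM in Tet2 vector hearts and 2040 and 1890 CPM in oridonin hearts, with every marker detected in each library. Gsn alone gave 1940 CPM of the WT sum, and the other 9 markers summed to 1020 CPM in WT, 1560 and 1640 CPM with vector and 859 and 889 CPM with oridonin. Like Igf1, Igfbp3 and Igfbp4, all 10 markers were lower in both oridonin hearts than in both vector hearts, against 17.8% of all tested genes. Both vector hearts were above WT for 7 of the 10, against 35.4% of all tested genes. The most raised of the 10 were the collagen genes, Col1a1 by a log2 of 1.37 and 1.41 and Col3a1 by 1.83 and 1.70 in the vector hearts. Igfbp3 was above WT by 0.83 and 1.04 there. Pdgfra (-0.06 and -0.57) and Gsn (-0.21 and -0.20) were below WT in both vector hearts, and Mfap5 (-0.08 and 0.83) in replicate 1. The 8 endothelial markers summed to 1550 CPM in WT, 1510 to 1590 CPM in the vector hearts and 1640 to 1700 CPM in the oridonin hearts. Fabp4, the largest term, gave 515 CPM of this in WT, 459 and 684 CPM with vector and 645 and 574 CPM with oridonin. The part of fibroblast content in the values of Igf1, Igfbp3 and Igfbp4 was not tested, in oridonin over vector or in vector over WT.

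Igfbp5, a binding protein made by fibroblasts and smooth muscle, lies at chr1:72857932-72874884 on the minus strand. It was at 111 CPM in WT, 153 and 79.6 CPM in Tet2 vector hearts and 65.5 and 89.5 CPM in oridonin hearts. The vector libraries lay on either side of WT, and both oridonin hearts were below WT. Tet2 vector over WT was -0.01 (95% interval -1.03 to 1.01; limma, adjusted p = 0.996). The sign of that value turned with scaling, to 0.08 on the total without mitochondrial genes and to 0.12 after quantile normalization. Oridonin over vector was -0.53 (limma, adjusted p = 1) and ranged from -1.0 to -0.06 with 1 library left out. From the median of the 4 to 8 kb class Igfbp5 differed by 0.40 and -0.31 in the vector hearts and by -0.58 and -0.27 in the oridonin hearts, so the groups still overlapped. Smooth muscle and pericyte markers also differed between the vector replicates, with sums of 1750 and 1280 CPM against 1280 and 1170 CPM in oridonin and 1630 CPM in WT, and their part in the Igfbp5 values was not tested.

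Igfbp6, which prefers IGF2 over IGF1, lies at chr15:102144362-102149511 on the plus strand. It was at 20.5 CPM in WT, 9.2 and 34.6 CPM in Tet2 vector hearts and 11.6 and 11 CPM in oridonin hearts. Vector replicate 2 was the highest of the 5 libraries and vector replicate 1 the lowest, while the oridonin replicates were close together. Oridonin over vector was -0.65 (95% interval -2.08 to 0.77; limma, adjusted p = 1) and was 0.30 without vector replicate 2. Tet2 vector over WT was -0.20 (limma, adjusted p = 0.946) and was 0.76 without vector replicate 1. The sum of tendon and valve markers was highest in vector replicate 2, at 66.8 CPM against 35.4 CPM in replicate 1. It was 11.2 CPM in WT and 8.2 and 5.83 CPM in oridonin, so replicate 1, lowest for Igfbp6, was not lowest here. Comp alone gave 45.3 CPM of the sum in replicate 2 and 20.0 CPM in replicate 1. Tnmd and Scx were also higher in replicate 2, but Fmod and Chad were higher in replicate 1. The part of such tissue in the Igfbp6 values was not tested. Igfbp6 stood at -1.27 and 0.38 from the median of genes under 2 kb in the vector hearts and at -1.01 and -0.94 in the oridonin hearts.

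Igfbp7 lies at chr5:77349240-77408041 on the minus strand and shares 85 exonic bases with Polr2b on the other strand. It was at 132 CPM in WT, 156 and 228 CPM in Tet2 vector hearts and 163 and 154 CPM in oridonin hearts. All 4 Tet2 hearts were above WT, and vector replicate 2 was above the other 3 of them. The log2 fold change was 0.51 for Tet2 vector over WT (95% interval -0.15 to 1.17; limma, adjusted p = 0.591) and 0.26 for oridonin over WT (limma, adjusted p = 0.88). Oridonin over vector was -0.25 (limma, adjusted p = 1) and 0.02 without vector replicate 2. Igfbp6 and Igfbp7 are the tested members under 2 kb, the class that was highest in vector replicate 2. Beside that class Igfbp7 was above the median by 0.12 and 0.40 in the vector hearts and by 0.11 and 0.17 in the oridonin hearts.

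Igfbp2, an adipose and liver binding protein, lies at chr1:72824503-72852474 on the plus strand, 5457 bases from Igfbp5. It had 0 counts in the WT library, 7 and 13 in the Tet2 vector pair and 2 and 2 in the oridonin pair. The vector hearts were 2.25- and 4.24-fold higher than the WT floor of 3 counts in 1 library, which leaves out the counting error of the vector counts. The 95% interval for counting error was 2.81 to 14.4 counts in vector replicate 1 and 6.92 to 22.2 in replicate 2. In WT it was 0 to 3.69 counts, so it overlapped that of vector replicate 1. Pooled, vector exceeded oridonin by a ratio of 4.73, from 20 against 4 counts (95% interval 1.58 to 19 for counting error only). In observed counts the 2 vector libraries did not overlap the other 3, at levels too low for the test across genes. Of all tested genes, 35.4% had both vector hearts above WT and 17.8% had both oridonin hearts below both vector hearts.

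The binding-protein genes were also read as a pool. Summed per kb of exon, the 6 genes gave 177 CPM per kb in WT, 209 and 273 in Tet2 vector hearts and 186 and 178 in oridonin hearts. Both vector hearts had a larger pool than the other 3. Igfbp7 supplied 61.9% of it in WT, 61.9% and 69.1% in Tet2 vector hearts and 72.3% and 71.7% in oridonin hearts. Igfbp4 supplied 8.67% to 15.4% over the 5 libraries, Igfbp5 4.86% to 12.2%, Igfbp6 3.96% to 11.4% and Igfbp3 4.32% to 6.51%, with Igfbp2 at most 0.168%. The pool exceeded Igf1 mRNA per kb by 196-fold in WT, 65- and 205-fold in Tet2 vector hearts and 233- and 141-fold in oridonin hearts. Vector replicate 1, with its high Igf1, was the lowest in this ratio. Most of the pool was Igfbp7, which binds IGFs weakly, so the ratio describes mRNA and not capacity to bind IGFs. It also sets a pool led by a 1.21 kb gene against the 9.9 kb of Igf1. The part of the length pattern in this ratio was not tested.

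**Figure D3:**
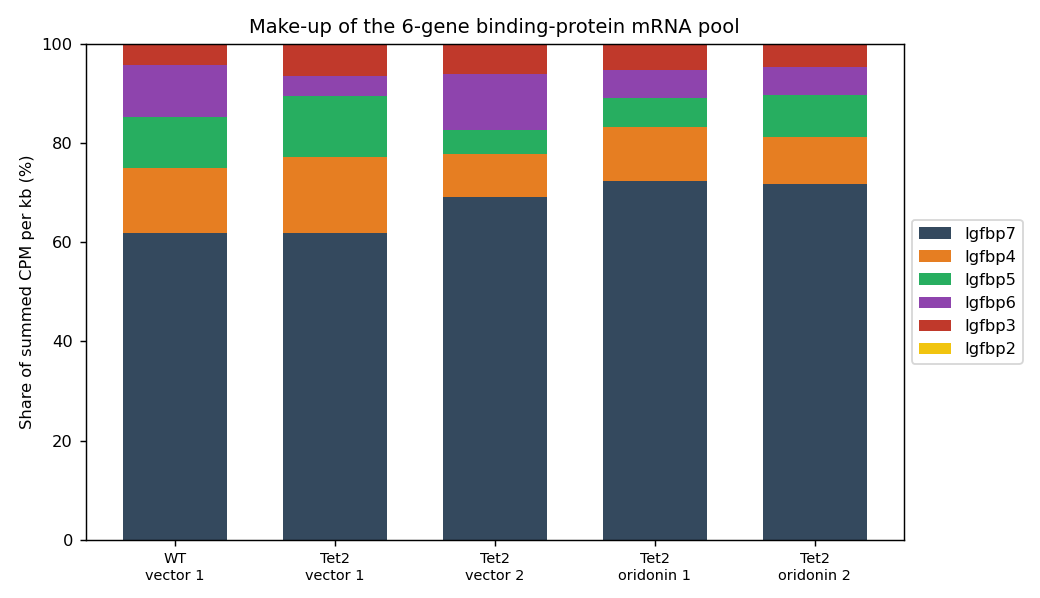
Share of each binding-protein gene (colours) in the summed CPM per kb of exon of the 6 genes (y axis, percent) in the 5 libraries (x axis). Igfbp7 took 61.9% in WT and vector replicate 1, 69.1% in vector replicate 2 and 72.3% and 71.7% in the oridonin hearts, and Igfbp2 was too low to be seen.

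Taking the 7 tested members together, Tet2 vector over WT gave 4 higher and 3 lower with a median log2 of 0.26, against 0.00 over all tested genes, of which 50.4% were higher and 49.6% lower. At an unadjusted p under 0.05, 1 member was higher (Igfbp3) and 0 were lower, where 9.59% of all genes passed, 5.06% higher and 4.53% lower. Both vector hearts were above the WT library for 4 members (Igf1, Igfbp3, Igfbp4 and Igfbp7) and below it for 1 (Igf1r). The same held for 35.4% of all genes upward and 32.3% downward, so such a pattern is common when 1 library is compared with 2.

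Oridonin over Tet2 vector gave 0 higher and 7 lower, with a median log2 of -0.56 against -0.05 over all tested genes, of which 40.2% were higher and 59.8% lower. Members with an unadjusted p under 0.05 were 2 lower (Igfbp3 and Igfbp4) and 0 higher, where 2.6% of all genes passed, 0.668% higher and 1.93% lower. Both oridonin hearts were below both vector hearts for 3 members (Igf1, Igfbp3 and Igfbp4) and above for 0, against 17.8% of all genes below and 8.37% above. With median-of-ratios scaling or quantile normalization Igf1r joined these 3. Without vector replicate 2, 5 members were lower and 2 higher.

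All 7 members thus leaned downward where 59.8% of genes did, no single member passed the test, and the 7 values come from the same 4 libraries. Subtracting the oridonin over vector difference of the matching length class left values between -1.01 for Igf1 and -0.12 for Igfbp7. Those class differences were only -0.13 to -0.03, as the length pattern lay in 1 library of each Tet2 group. The subtraction could therefore hardly move any value and is no test of length.

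Oridonin over WT gave 3 higher and 4 lower members, with a median log2 of -0.29 against -0.06 over all tested genes, of which 43.8% were higher and 56.2% lower. Members with an unadjusted p under 0.05 numbered 0 in either direction, where 6.21% of all genes passed, 2.69% higher and 3.53% lower. Both oridonin hearts were above WT for Igfbp3 and Igfbp7 and below it for Igf1r, Igfbp4, Igfbp5 and Igfbp6, against 31.9% of all genes above and 41.7% below. Under quantile normalization Igfbp4 left that list.

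**Figure D4:**
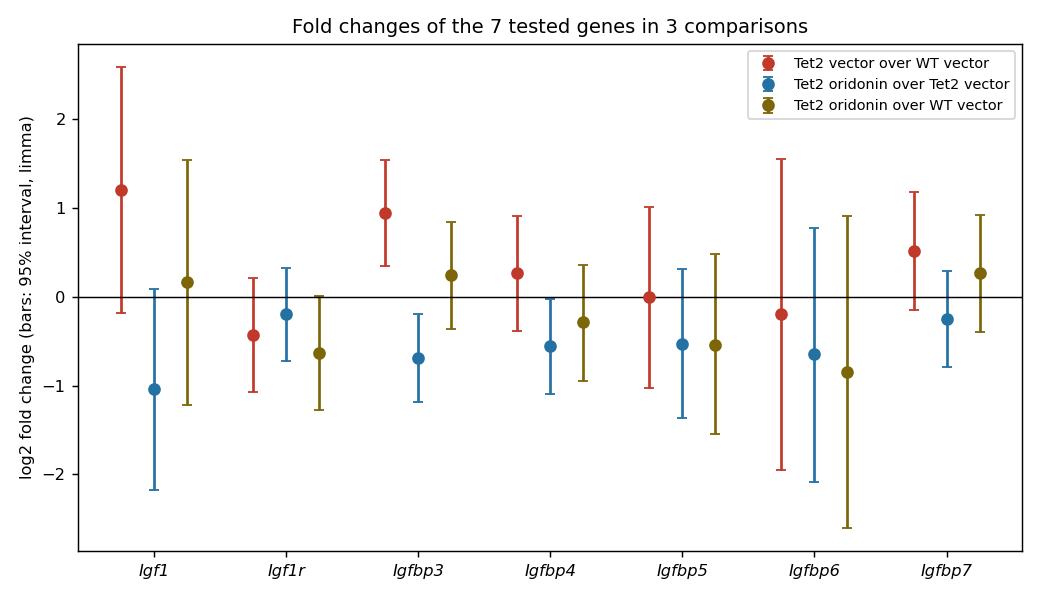
Log2 fold changes of the 7 tested genes (points, y axis) with 95% intervals from limma (bars) in 3 comparisons (colours). All 7 points for oridonin over Tet2 vector lie below 0, from -0.20 for Igf1r to -1.04 for Igf1, and the intervals of Igfbp3 and Igfbp4 alone leave out 0 in that comparison.

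Other genes of the pathway were read from lists chosen with earlier results known, and 0 genes of any list passed the test in any comparison. Of the receptors that also bind IGFs or insulin, Insr and Igf2r were tested and both were lower in Tet2 vector hearts than in WT at an unadjusted p under 0.05, as were 4.53% of all genes. Insr, the insulin receptor gene, was at 263 CPM in WT, 147 and 95.7 CPM in Tet2 vector hearts and 111 and 150 CPM in oridonin hearts (log2 fold change of vector over WT -1.15; limma, adjusted p = 0.438). Igf2r, which clears IGF2, was at 272 CPM, 190 and 118 CPM, and 148 and 167 CPM in the same order (-0.86; limma, adjusted p = 0.502). All 4 Tet2 hearts were below WT for both genes and for Igf1r, as they were for 27.2% of all tested genes. All of these receptor genes have 8 kb or more of exon. The median of that class stood at -0.46 from WT in vector replicate 2 and -0.38 in oridonin replicate 1. It stood at 0.06 in vector replicate 1 and -0.08 in oridonin replicate 2. The part of length in the receptor values was not tested.

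Of the 20 genes of signalling below the receptor, 4 were higher and 16 lower in Tet2 vector than in WT, 1 and 7 of them at an unadjusted p under 0.05 (5.06% and 4.53% of all genes), with a median log2 of -0.36 against 0.00 over all genes. In oridonin over vector 9 were higher and 11 lower, 0 at that p, with a median of -0.02. In oridonin over WT 2 were higher and 18 lower, 8 of the lower at that p (3.53% of all genes), with a median of -0.39.

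The docking protein gene Irs1 was at 27.1 CPM in WT, 10.7 and 3.46 CPM in Tet2 vector hearts and 5.88 and 10.3 CPM in oridonin hearts (vector over WT -2.15; limma, adjusted p = 0.465). Pik3r1, the regulatory subunit of phosphoinositide 3-kinase, was at 312 CPM, 143 and 89.3 CPM, and 109 and 155 CPM (-1.46; limma, adjusted p = 0.379). Foxo3, a transcription factor held out of the nucleus by AKT, was at 171 CPM, 82.2 and 59.8 CPM, and 79.5 and 88.9 CPM (-1.29; limma, adjusted p = 0.324). Tsc2, an inhibitor of mTOR signalling, was at 142 CPM in WT and 84.4 to 100 CPM in Tet2 hearts. These 4 genes were named for their small p in vector over WT, so their position below WT is a description. Over the whole list, all 4 Tet2 libraries were below WT for 11 of 20 genes, against 27.2% of all tested genes.

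These signalling genes were long, with a median of 8.88 kb of exon against 4.54 kb over all 12317 tested genes with a length, and 12 of 20 had 8 kb or more. By library, 12 and 16 of the 20 were below WT in vector replicates 1 and 2 and 18 and 16 in oridonin replicates 1 and 2, against 43.1%, 53.8%, 58.5% and 51.2% of all tested genes in that order. The part of length in the group values was not tested.

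Of the genes for carriers, proteases and their inhibitors, 4 of 8 were tested. In Tet2 vector over WT 2 were higher and 2 lower, where 50.4% of all tested genes were higher. In oridonin over vector 4 were higher and 0 lower, where 40.2% of all tested genes were higher. Among those 4, Stc2 and Htra1 differed by a log2 of only 0.05 and 0.09. Igfals, the liver-derived subunit that holds IGF and IGFBP3 in a large complex, was at 6.61 CPM in WT, 2.06 and 4.56 CPM in Tet2 vector hearts and 6.56 and 10.2 CPM in oridonin hearts. Both oridonin hearts were above both vector hearts (a log2 difference of 1.40, 95% interval 0.29 to 2.52; limma, adjusted p = 1), as for 8.37% of all tested genes. This was the opposite direction to Igfbp3. Htra1, a protease that cuts binding proteins, was at 62.7 CPM in WT and 79.8 to 91.7 CPM in the 4 Tet2 hearts. The stanniocalcin genes Stc1 and Stc2, whose products inhibit PAPP-A proteases, differed in direction. Stc1 was at 4.92 CPM in WT and 2.45 to 3.64 CPM in Tet2 hearts, and Stc2 at 12.4 CPM in WT and 15.7 to 20.7 CPM in Tet2 hearts. Pappa, Pappa2 and Igfbpl1 were below the filter, and Igfbp1 had no entry in the deposited table.

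The 6 genes of the growth hormone axis were 3 higher and 3 lower in Tet2 vector over WT, against 50.4% and 49.6% of all tested genes. In oridonin over vector 2 were higher and 4 lower, against 40.2% and 59.8%. At an unadjusted p under 0.05 in vector over WT, 1 gene was higher, as were 5.06% of all genes. That gene was Stat5a, a transcription factor activated by the growth hormone receptor, at 15.5 CPM in WT, 28.5 and 23.9 CPM in Tet2 vector hearts and 22.6 and 25.3 CPM in oridonin hearts (vector over WT 0.75; limma, adjusted p = 0.479). Its relative Stat5b was at 92.6 CPM in WT, 87.5 and 53.7 CPM in vector and 73.0 and 74.2 CPM in oridonin. The receptor gene Ghr was at 129 CPM in WT, 179 and 122 CPM in vector and 104 and 130 CPM in oridonin, with the groups overlapping. Cish, a feedback inhibitor of this pathway, was at 67.1 CPM, 57.8 and 85.4 CPM, and 39.4 and 74.6 CPM.

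Igf2 lies in an imprinted region, 72622 bases from H19, a maternally expressed noncoding RNA gene. H19 was at 1.55 CPM in WT, 80.1 and 3.39 CPM in Tet2 vector hearts and 2.80 and 12.8 CPM in oridonin hearts. Vector replicate 1 was thus the highest library for H19 as for Igf2, and oridonin replicate 2 the next highest for H19. Vector over WT was 3.39 on the log2 scale (standard error 1.80; limma, adjusted p = 0.597), and 1.11 without vector replicate 1. The noncoding Meg3 was at 1.57 CPM, 6.31 and 2.35 CPM, and 0.820 and 3.22 CPM in the same order. Plagl1 and Peg3, chosen for mention after their values were seen, were at 11.8 and 15.3 CPM in vector replicate 1 and at 0.652 to 4.32 CPM and 3.21 to 8.01 CPM in the other 4 libraries. Ndn, at 5.11 CPM in WT and 6.72 to 9.27 CPM in Tet2 hearts, varied less.

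Of the 9 tested imprinted growth genes, 5 were higher and 4 lower in both main comparisons. Over all tested genes, 50.4% were higher in vector over WT and 40.2% in oridonin over vector. In oridonin over vector the 5 higher genes differed by a log2 of at most 0.13. At an unadjusted p under 0.05 in vector over WT, 0 were higher and 1 lower (Igf2r, which is in both lists), against 5.06% and 4.53% of all genes. Vector replicate 1 was the highest library for 5 of the 9 (H19, Plagl1, Meg3, Peg3 and Ndn), against 31.4% of all tested genes. The other 4, mentioned after their values were seen, were highest elsewhere. Cdkn1c, a cell cycle inhibitor, was lowest in that library, at 12.6 CPM against 18.1 to 25.2 CPM. Mest and Grb10 were highest in oridonin replicate 2, at 4.87 and 95.7 CPM, and Igf2r in WT. Vector replicate 1 is also the library with the atrial markers, whose part in its values was not tested. Of the genes for Igf2 mRNA-binding proteins, only Igf2bp2 passed the filter, at 4.83 CPM in WT, 3.09 and 2.22 CPM in Tet2 vector hearts and 2.73 and 4.19 CPM in oridonin hearts.

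**Figure D5:**
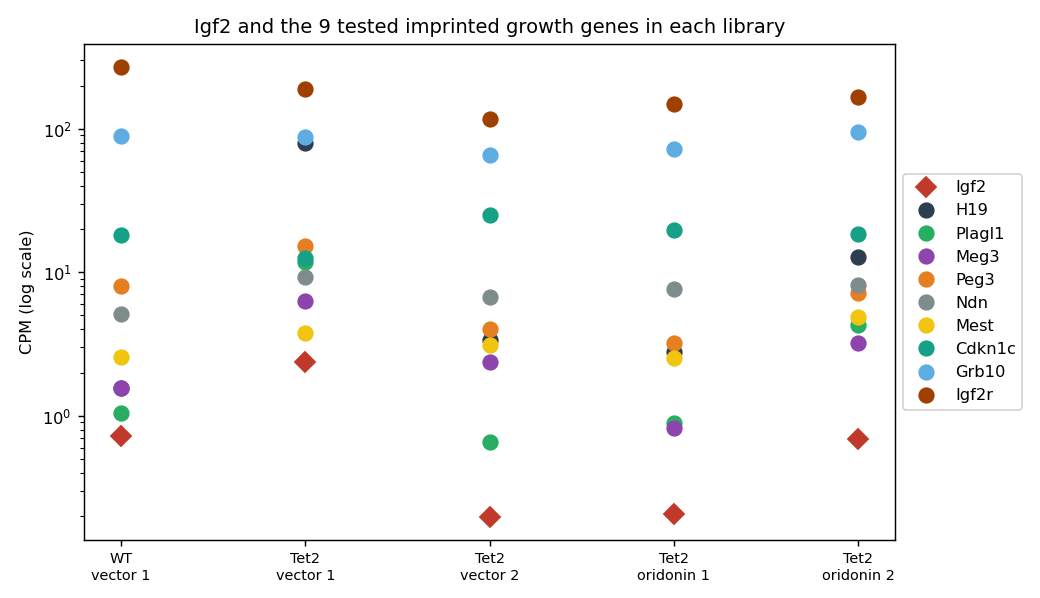
Level in CPM (y axis, log scale) of Igf2 (diamonds) and the 9 tested imprinted growth genes (circles) in the 5 libraries (x axis). Vector replicate 1 is the highest library for Igf2 at 2.38 CPM and for 5 of the 9, H19 at 80.1 CPM among them, and the lowest for Cdkn1c at 12.6 CPM, while H19 lies beneath Meg3 in the WT library at 1.55 and 1.57 CPM.

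The genes whose log2 values ran closest to those of Igf1 over the 5 libraries were Ptk7 (Pearson r 0.9982), Abi3bp (0.9973) and Orc4 (0.9972). For Igfbp3 they were Slc35b1 (0.9982), Rnf41 (0.9978) and Pkig (0.9972). With 12734 genes and 5 libraries, values this high are a description of shared library patterns and no test was made of them.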

How the data were processed

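The authors deposited 1 table of log2 values per gene symbol for 5 libraries, and 0 columns were left without a sample. The labels' protocols give poly-A selection and a NEBNext Ultra library kit, and the submitters' processing notes name the build mm10. The sources used here do not name the aligner, counter or annotation.

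The deposited log2 values had the form of log2 CPM with 0.5 added to each count, and each Tet2 column was 0.75 of its own value plus 0.25 of the other replicate's. Undoing this gave whole counts (within 0.01) for 99.92% to 99.94% of genes, against 9.058% to 10.37% as deposited and 1.28% to 10.06% at other weights. The WT column, with 33.48% of genes whole, also appears mixed, with a part that is not in the table, and entered unaltered as a single sample. The sources used here do not say how the mix arose. Left in place, it shrinks replicate differences by a factor of 0.5.

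Genes with at least 1 CPM in 2 libraries were fitted with limma 3.58.1 (R 4.3.3), trend and robust empirical Bayes, group as the only term, and p-values were adjusted by Benjamini-Hochberg over all 12734 genes. The scripts were tested on simulated data. Members and lists were chosen with earlier results of these data known. All 9 members are named, with up to 4 genes per pathway list by smallest unadjusted p in vector over WT or oridonin over vector, and the 3 genes most correlated with Igf1 and Igfbp3. Exon lengths and positions come from GENCODE M21. Alternatives were the deposited values, 3 scalings, no filter, a pseudocount of 1 CPM, voom, plain limma, both groups alone, blocks and leaving out each library. Length classes and counts by library over lists were added after the data were seen. Marker lists also covered fat, nerve, epicardium, lymphocytes and red cells, whose sums were 40.5 to 50.3, 3.39 to 14.2, 4.43 to 7.68, 0.837 to 2.22 and 147 to 387 CPM. Lipe alone gave 28.5 to 49.8 CPM of the fat sum, so that sum hides the other fat markers. Each of those was highest in vector replicate 1 and next in oridonin replicate 2. Car3 was at 12.5 and 3.02 CPM there, against 0.273 to 0.333 CPM in the remaining libraries. The part of fat tissue in the values of these libraries was not tested.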

Additional observations from a re-analysis of the deposited data

How the results depend on the processing

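Members past the threshold numbered 0 in each comparison in limma, and 0 whenever 1 library was left out (range 0 to 0). With the deposited, still mixed values, 3 members passed in Tet2 vector over WT (Igf1 at adjusted p = 0.0377, Igfbp3 at 0.0117 and Igfbp7 at 0.0489) among 2334 genes called, 1 in oridonin over WT (Igf1r, 0.0436) among 996, and 0 in oridonin over vector among 98. The mix brings replicates closer together and so lowers the spread by construction. The cause of differences under other settings was not tested.

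The title numbers are not said to pair animals, and same-numbered libraries deviated in opposite directions (correlation -0.296 over 12734 genes). With the replicate block, 0 members passed in any comparison, and 10, 9 and 6 genes in all. A crossed pairing, added after the data were seen, called 2 members in vector over WT (Igf1 and Igfbp3) among 432 genes, and 0 members in the others among 44 and 184 genes.

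Igfbp5 in vector over WT, at -0.01, turned to 0.08 on the total without mitochondrial genes, 0.12 after quantile normalization, 0.11 with the replicate block and 0.34 with the crossed block. With 1 library left out it ranged from -0.48 to 0.46, Igfbp6 from -1.15 to 0.76 in the same comparison and from -1.61 to 0.30 in oridonin over vector, Igfbp7 from -0.52 to 0.02 and Cish from -0.83 to 0.09 there, and Igf1 from -0.17 to 0.48 in oridonin over WT. The total without mitochondrial genes moved the median of all genes from 0.00 to 0.10 in vector over WT and from -0.06 to 0.05 in oridonin over WT. Over all genes, leaving out oridonin replicate 1 or 2 gave 87 and 107 calls in vector over WT, and leaving out 1 library gave up to 32 in oridonin over vector and up to 24 in oridonin over WT. Using both groups alone gave 103, 0 and 1. Of the members' other single values, 307 kept direction and side of the threshold and 6 passed it, and of those of pathway genes 256 and 17. Depth limits Igf2 and Igfbp2, with at most 37 and 13 counts in a library.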
